A study of Mus musculus with 8 samples.

Results

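The genes examined here were the interferon-induced genes and interferon regulatory factors (IRFs) of cultured mouse brain pericytes. The members were found by their mouse symbols as protein-coding genes of the *Ifit*, *Ifi*, *Ifitm*, *Irf*, *Oas*, *Gbp*, *Mx* and *Isg* series, together with STAT genes such as *Stat2*, with *Ifih1*, *Rsad2*, *Bst2*, *Usp18*, *Ddx58*, *Dhx58* and the receptor genes *Ifnar1*, *Ifnar2*, *Ifngr1* and *Ifngr2*. There were 76 members among the 54532 gene identifiers counted, and 71 of them were expressed highly enough to be tested. The rule used symbols only, but it was set with earlier results of these data known, so the choice was not independent of them. Bulk RNA sequencing was performed on 8 primary cultures from the brain of mice labelled WT (wild type), which were expanded in culture over several passages. In 4 of them the cells received TGF-β1 (transforming growth factor β1, a secreted cytokine) at 5 μg/mL for 48 h, and in the other 4 they received vehicle for the same time. The vehicle cultures carried the replicate numbers 1 to 4 and the TGF-β1 cultures the numbers 5 to 8, and values below are given in that order. The methods describe 4 separate isolates given both treatments, but the labels do not tie the cultures to isolates, so the groups were compared unpaired. The methods describe the mice as male and 4 and 6 months old, and do not tie an age or a strain to the pericyte donors. The question of the comparison was which genes TGF-β1 changed in pericytes.

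Interferons are cytokines that cells release when they sense viral or misplaced nucleic acid. Type I interferons bind the receptor chains IFNAR1 and IFNAR2, and type II interferon binds IFNGR1 and IFNGR2. Janus kinases on these receptors phosphorylate STAT proteins, which with IRF9 form the complex ISGF3. ISGF3 binds the interferon-stimulated response element (ISRE) in the promoters of antiviral genes, and other STAT pairs bind the gamma-activated site (GAS). The induced proteins sense RNA and DNA, degrade or sequester viral RNA and block virus entry or release. Several of them, such as STAT2, IRF7 and IRF9, belong to the signalling chain itself.

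The libraries held between 45255235 and 47651397 counts, and the totals did not separate the groups (exact two-sided permutation test over the 35 splits, p = 0.857). Values are given as CPM, counts per 1000000 counts of a library, scaled with TMM factors (which align the bulk of genes between libraries), and 3 counts corresponded to 0.0631 to 0.0658 CPM. Nothing in the labels says that the cultures within a group came from separate animals, so the p-values measure the spread between these 8 cultures, which may be in part technical. The treatment label was checked with 14 genes known to respond to TGF-β, and 13 of these were higher and 1 (*Tgfbi*) was lower. Among them, *Ltbp2* rose (6.58 ± 0.893 to 24.4 ± 1.63 CPM) and *Tgfbi* fell (230.0 ± 4.78 to 81.2 ± 10.3 CPM; mean ± SD, n = 4 each). The cell type label was less clear in the data: of 12 brain pericyte markers, *Kcnj8*, *Abcc9*, *Vtn*, *Higd1b*, *Atp13a5* and *Des* stayed below 1 CPM in every culture, while *Pdgfrb* was at 198 to 209.7 CPM with vehicle and 289 to 294 CPM with TGF-β1. The pericyte list summed to 419.7 to 439.9 CPM with vehicle and 578 to 601 CPM with TGF-β1. Of its 9 genes tested, *Pdgfrb*, *Cspg4* and *Mcam* rose (log2 fold changes 0.53, 1.03 and 0.94) and *Rgs5*, *Anpep* and *Atp13a5* fell (-2.02, -0.43 and -1.27). *Atp13a5*, at 4 to 38 counts per culture, entered the test only through its vehicle cultures, so its call carries little weight. Immune cells, which also express interferon-induced genes, left little signal. The 7 T, NK and B cell markers were all below 1 CPM, with *Ncr1* at 0. Of 16 macrophage and microglia markers, 11 were below 1 CPM in every culture and *C1qb* was at 0. The macrophage and microglia list summed to 110.1 to 115 CPM with vehicle and 109.5 to 112 CPM with TGF-β1, nearly all of it from *Tmem119*, and 1 of its 9 genes tested (*Csf1r*, log2 fold change 0.73) was called. The endothelial list summed to 490.1 to 503 CPM with vehicle and 491 to 515 CPM with TGF-β1, with *Cdh5* highest and *Cldn5*, *Emcn* and *Slco1a4* below 1 CPM in every culture. Within that list, *Vwf* and *Flt1* rose (log2 fold changes 1.27 and 0.28) and *Tek* and *Ly6c1* fell (-0.45 and -0.33), although *Tek* was not called without vehicle replicate 1 (edgeR adjusted p = 0.115). The astrocyte list summed to 208 to 220.1 CPM with vehicle and 207 to 220.3 CPM with TGF-β1, most of it from *Gja1*, and *Aqp4* was below 1 CPM. In this list *Slc1a3* and *Aldh1l1* rose (log2 fold changes 0.64 and 0.77) and *S100b* fell (-1.55). The smooth muscle list, nearly all *Acta2*, summed to 694 to 765 CPM and 704 to 742 CPM. The fibroblast list summed to 1653 to 1734 CPM with vehicle and 2568 to 2695 CPM with TGF-β1. Nearly all of this was *Col1a1*, also 1 of the 14 check genes, at 1587 ± 36.8 CPM with vehicle and 2525 ± 49.5 CPM with TGF-β1. Of the other fibroblast genes, *Dcn* and *Dpt* fell (log2 fold changes -0.16 and -0.82), *Pdgfra* and *Col15a1* were not called and *Lum* was not tested. *Dpt*, at 9 to 28 counts per culture, also entered the test only through its vehicle cultures. The part of these marker differences in the results was not tested. In bulk RNA, fewer cells of a type and less RNA per cell cannot be told apart.

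Interferon-induced genes were broadly lower in the TGF-β1 cultures. Of the 71 members tested, 59 fell and 4 rose at an adjusted p below 0.05 (edgeR quasi-likelihood test, Benjamini-Hochberg adjustment over all 22544 genes tested). Of all genes tested, 20.3% were lower and 20.9% were higher by the same rule. The members had a median log2 fold change (TGF-β1 minus vehicle) of -0.83, with a range from -2.15 to 0.86, where the median over all genes tested was -0.01. For single genes the log2 fold change is given with its standard error (±). Falls of at least 0.5 on the log2 scale were called in 50 members, against 7.89% of all genes tested, and falls of at least 1 in 24 members, against 2.83%. These counts of lower members include *Oas1d* and *Oas1f*, which entered the test only through their vehicle cultures. With at least 10 counts in every culture, 57 of 68 members tested were lower. DESeq2, the tool of the study, also called 59 members lower and 4 higher, against 15.5% and 17.3% of the genes it tested. Where a role group below is said to hold none that rose, the count was 0 by edgeR, by DESeq2 and at an unadjusted edgeR p under 0.05. In 58 members all TGF-β1 cultures lay below all vehicle cultures, and in 3 they all lay above, where the shares over all genes tested were 18.8% and 19.1%. Summed over the members, the level was 11365, 10528, 11343 and 10935 CPM in the vehicle cultures and 6373, 6923, 6234 and 5729 CPM in the TGF-β1 cultures.

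**Figure D1:**
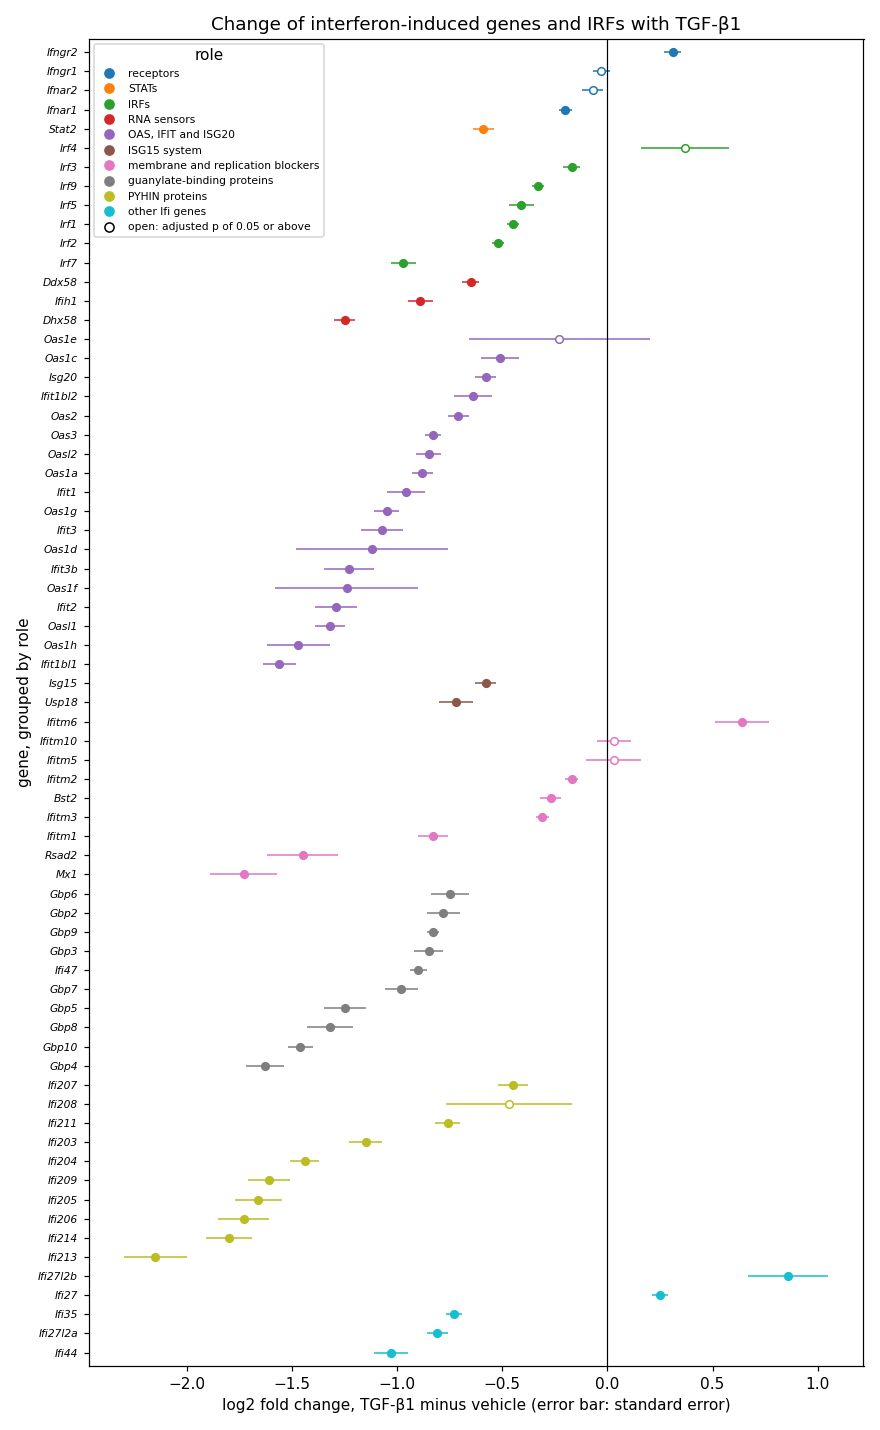
Log2 fold change (TGF-β1 minus vehicle, x axis) of 69 of the 71 members tested (y axis), coloured by role, with bars for the standard error and open circles for an adjusted p of 0.05 or above. Nearly all points lie left of 0, from -2.15 for *Ifi213*, and the 4 filled points right of 0 are *Ifngr2*, *Ifitm6*, *Ifi27* and *Ifi27l2b*.

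**Figure D2:**
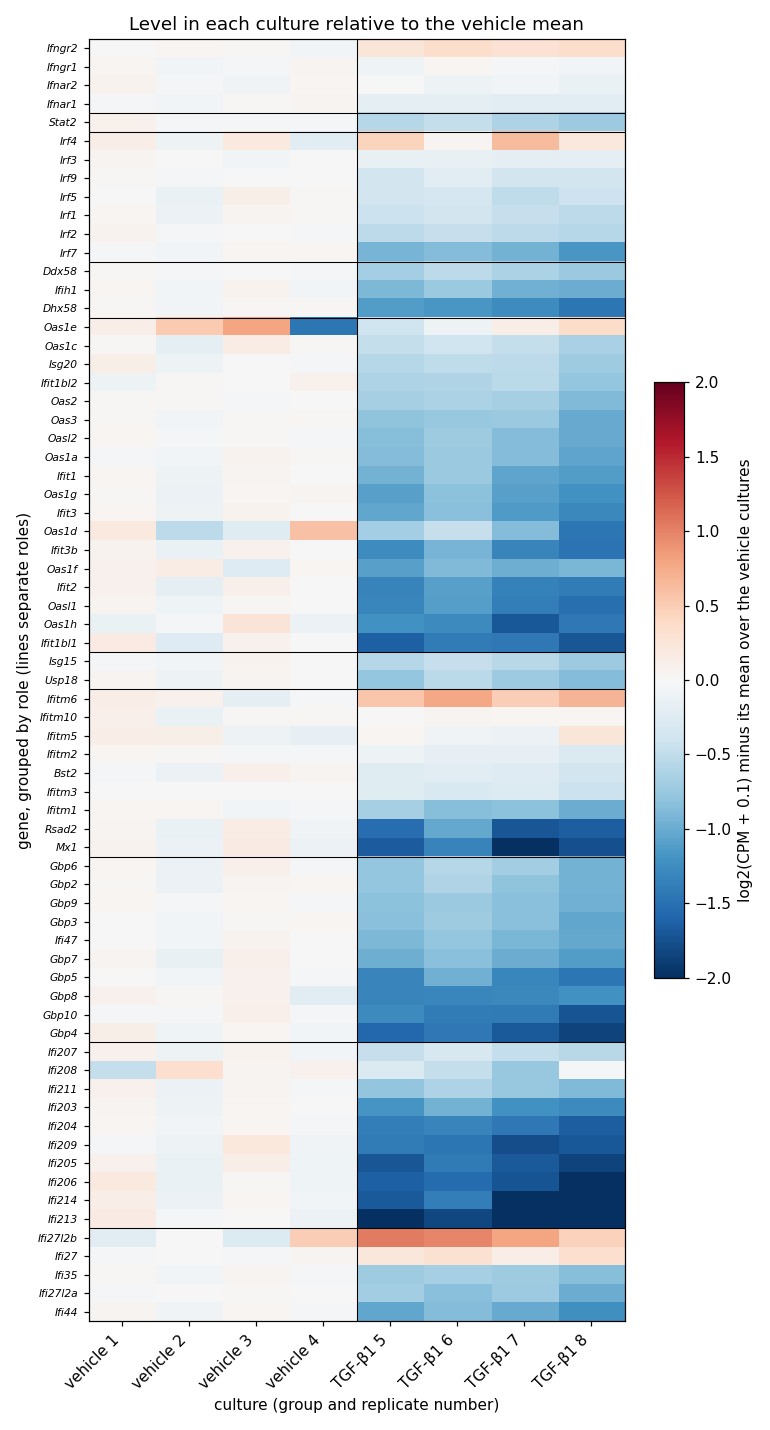
Level of 69 of the 71 members tested (rows, grouped by role) in each culture (columns), as log2(CPM + 0.1) minus its mean over the vehicle cultures. The TGF-β1 columns are blue for most rows, TGF-β1 replicate 6 is the palest of them and TGF-β1 replicate 8 the darkest, and the rows of *Ifnar2*, *Ifngr1*, *Ifitm5* and *Ifitm10* show no shift.

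The promoters of the lower members often held the ISRE, the site that ISGF3 and several IRFs recognize. Promoter windows of 300 bases (250 before the start site and 50 after) were taken from RefSeq on GRCm38.p6, and 59 of the 76 members had at least 1. The letters searched were GAAA, any 2 bases and GAAA for the ISRE, TTCNNNGAA for the GAS and, as sequences that SMAD proteins of the TGF-β pathway can bind, GTCTAGAC and CAGACA, each on both strands. Overlapping ISRE matches were each counted, so the single run of *Isg15* counts as 3. Of the 46 lower members with a window, 29 (63%) held an ISRE match, where 52.5% of the 59 members and 3.99% of all 27025 genes with a window did. The members were picked by symbol as interferon-induced genes, so the gap to all genes cannot be tied to the falls. A match was present in 0 of 2 higher members, in 1 of 6 members that were tested and not called and in 1 of 5 members not tested. The GAS was present in 23.9% of the lower members and 9.55% of all genes. GTCTAGAC was found in none of them and in 0.248% of all genes, and CAGACA in 19.6% of them and 23.6% of all genes. Of the 43 ISRE matches in lower members, 32 started within 150 bases before the start site and 5 started after it, and 12 lower members held 2 or more in 1 window. Some of these 12, such as *Bst2*, *Gbp3* and *Isg15*, held overlapping matches only. The matches of *Ifit1* and *Ifit1bl2* are the same sites in overlapping windows and were counted for each gene. Falls were of like size with and without a match to these letters. The search took 1 pattern in a window of 300 bases, so members without a match are not shown to lack an ISRE. Among the lower members the median log2 fold change was -0.88 with a match (29 members, range -2.15 to -0.17) and -0.85 without (17 members, range -1.61 to -0.17). Beyond the members, 448 genes tested had an ISRE match, and 34.6% of these were lower and 23.9% higher, whereas of 12475 genes without a match 22.5% were lower and 26.2% higher. Only the members were taken out here, so the other interferon-stimulated genes listed below can be among the 448. Their part in these shares was not tested. These matches are letters in a window and not measured binding. The stretches below come from the member with the highest level per length and the member with the largest fall in each role, among the lower members with a match before the start site. They were chosen for holding a match, so the recurrence of its letters is not a result. They are written 5′ to 3′ on the strand of the gene in GRCm38.p6, the capitals mark the ISRE matches, and TTTC forms are matches on the opposite strand:
*Stat2* (chr10:128270256-128270305, + strand): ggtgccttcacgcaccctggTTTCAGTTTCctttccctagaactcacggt
*Irf2* (chr8:46739495-46739533, + strand): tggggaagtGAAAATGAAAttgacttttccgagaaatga
*Ifit3* (chr19:34583353-34583436, + strand): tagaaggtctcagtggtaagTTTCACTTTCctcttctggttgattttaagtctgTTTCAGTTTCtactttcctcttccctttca
*Ifit1bl1* (chr19:34602043-34602092, - strand): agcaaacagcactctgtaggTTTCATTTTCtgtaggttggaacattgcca
*Isg15* (chr4:156200855-156200916, - strand): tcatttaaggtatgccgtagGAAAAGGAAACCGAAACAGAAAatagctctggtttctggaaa
*Ifitm2* (chr7:140955978-140956027, - strand): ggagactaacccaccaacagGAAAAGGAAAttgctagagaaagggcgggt
*Rsad2* (chr12:26456543-26456592, - strand): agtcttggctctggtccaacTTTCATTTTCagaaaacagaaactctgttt
*Gbp2* (chr3:142620584-142620633, + strand): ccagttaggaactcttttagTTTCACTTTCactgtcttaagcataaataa
*Gbp5* (chr3:142496749-142496798, + strand): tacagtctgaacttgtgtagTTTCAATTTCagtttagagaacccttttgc
*Ifi207* (chr1:173741821-173741870, - strand): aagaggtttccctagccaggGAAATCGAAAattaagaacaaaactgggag
*Ifi213* (chr1:173599316-173599365, - strand): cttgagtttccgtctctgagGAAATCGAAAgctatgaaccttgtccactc

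**Figure D3:**
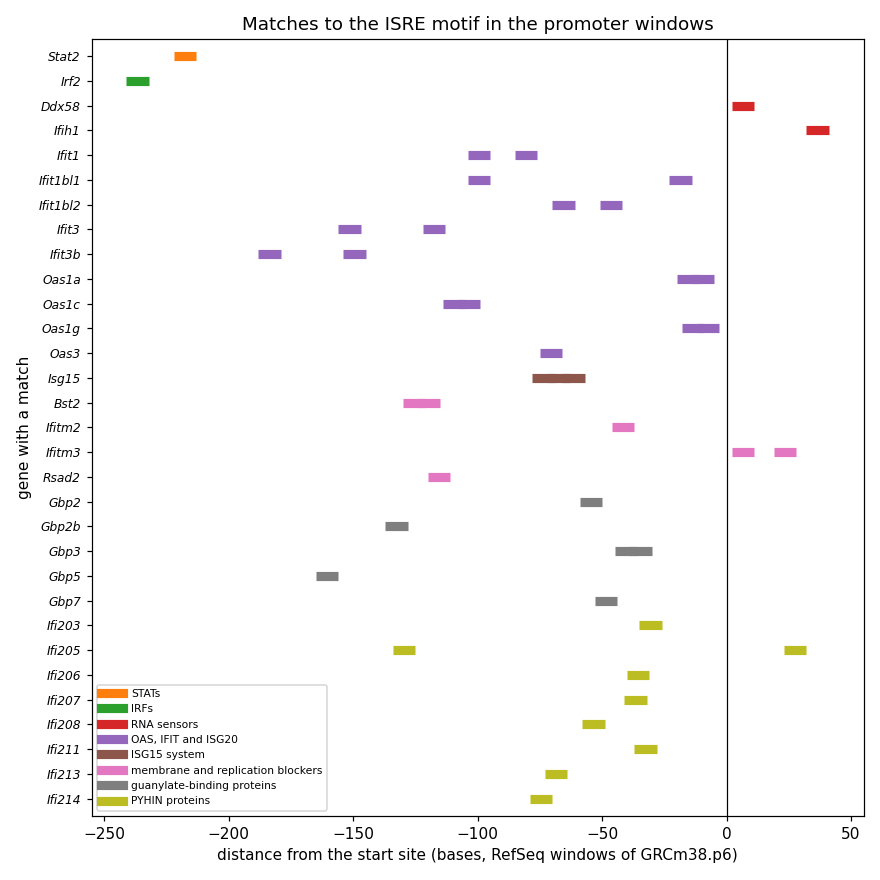
Position of each ISRE match (bars, coloured by role) relative to the start site (x axis, in bases) in the promoter windows of the 31 members with a match (y axis). Most bars lie within 150 bases before the start site, and *Ddx58*, *Ifih1*, *Ifitm3* and *Ifi205* have a bar after it.

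The receptors changed little, and in both directions. Type I receptor chain *Ifnar1* (ENSMUSG00000022967, chromosome 16, 91485238 to 91507441 of GRCm38) was at 71.9, 70.9, 74.4 and 75.9 CPM with vehicle and 64.9, 64.2, 62.7 and 63.2 CPM with TGF-β1. All TGF-β1 cultures were below the vehicle cultures, by a small step of -0.20 ± 0.03 on the log2 scale (adjusted p = 6.26e-07, edgeR quasi-likelihood test). Its partner *Ifnar2* was at 28.3, 26.1, 25.7 and 27.6 CPM and then 26.8, 25, 25.9 and 24.5 CPM, and the groups overlapped (log2 fold change -0.07 ± 0.05, edgeR adjusted p = 0.213). For type II interferon, the ligand-binding chain *Ifngr1* was at 50.5, 47.5, 47.9 and 50.8 CPM with vehicle and 46.2, 50.4, 48.1 and 47.3 CPM with TGF-β1. The groups again overlapped (log2 fold change -0.03 ± 0.04, edgeR adjusted p = 0.484). The accessory chain *Ifngr2* was at 44.4, 45.5, 45.1 and 43 CPM with vehicle and 52.6, 56.5, 54.1 and 56.8 CPM with TGF-β1, with every TGF-β1 culture higher. *Ifngr2* was 1 of the 4 members that rose, by 0.31 ± 0.04 on the log2 scale (edgeR adjusted p = 8.29e-10). *Ifnar1*, *Ifnar2* and *Ifngr2* lie within 193 kb of chromosome 16, and their summed level was 145 ± 1.72 CPM in vehicle cultures and 144 ± 1.21 CPM in TGF-β1 cultures (mean ± SD, n = 4 each).

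*Stat2* (ENSMUSG00000040033, chromosome 10, 128270559 to 128292849), which encodes the STAT specific to type I and type III signalling, fell. It was at 721, 667, 673 and 664 CPM with vehicle and 457, 489, 446 and 412 CPM with TGF-β1 (log2 fold change -0.59 ± 0.05, edgeR adjusted p = 3.85e-05). All TGF-β1 cultures were below the vehicle cultures, and the mean was 66.2% of the vehicle mean.

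Of the IRF genes, 6 fell and none rose. *Irf7* (ENSMUSG00000025498, chromosome 7, 141262706 to 141266481), the IRF that amplifies the type I interferon response and is itself induced by it, was at 219, 215, 228 and 228 CPM with vehicle and 117, 122, 116 and 99.5 CPM with TGF-β1. The TGF-β1 mean was 51% of the vehicle mean, the largest fall in the family (log2 fold change -0.97 ± 0.06, edgeR adjusted p = 2.28e-06). *Irf1*, an activator induced mainly by type II interferon, was at 126, 114, 128 and 125 CPM with vehicle and 91.4, 95, 89.6 and 85.3 CPM with TGF-β1. *Irf2*, known as the antagonist of IRF1 on shared sites, was at 78.8, 74.4, 74.6 and 73.9 CPM with vehicle and 52.2, 54.8, 52.5 and 50.5 CPM with TGF-β1. The activator and its antagonist thus fell by like amounts, with log2 fold changes of -0.45 ± 0.03 and -0.52 ± 0.03 (edgeR adjusted p = 6.15e-14 and 7.79e-18). *Irf9*, the DNA-binding part of ISGF3, was at 143, 139, 141 and 140.2 CPM with vehicle and 109, 121, 109 and 109 CPM with TGF-β1 (log2 fold change -0.33 ± 0.03, edgeR adjusted p = 4.5e-13). *Irf9* and its partner *Stat2* were therefore both lower. *Irf5*, which acts below Toll-like receptors, was at 17, 15.7, 18.6 and 17.4 CPM with vehicle and 13.2, 13.5, 12 and 12.9 CPM with TGF-β1 (log2 fold change -0.41 ± 0.06, edgeR adjusted p = 2.34e-07). *Irf3*, which is present before infection and starts interferon β transcription, was at 49, 46.9, 45.2 and 47.4 CPM with vehicle and 42.3, 42.6, 41.2 and 41.6 CPM with TGF-β1. *Irf3* had the smallest called fall of all members together with *Ifitm2*, at -0.17 ± 0.04 (edgeR adjusted p = 0.000152). *Irf4*, best known from lymphocytes, was at 0.998, 0.833, 1.05 and 0.758 CPM with vehicle and 1.27, 0.936, 1.46 and 1.06 CPM with TGF-β1. Its groups overlapped at 35 to 67 counts per culture and it did not pass the test (log2 fold change 0.37 ± 0.21, edgeR adjusted p = 0.156). *Irf8*, best known from myeloid cells, had 0 to 6 counts per culture and was not tested.

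The 3 cytosolic RNA sensors of the RIG-I family fell together, with a median of -0.89. *Ddx58*, which encodes RIG-I, was at 525, 508, 519 and 506 CPM with vehicle and 321, 357, 331 and 306 CPM with TGF-β1. *Ifih1*, which encodes MDA5, was at 270.0, 251, 276 and 251 CPM with vehicle and 141, 157, 135 and 131 CPM with TGF-β1. *Dhx58* encodes LGP2, a relative without signalling domains that modulates the other two, and was at 58.7, 55.2, 58.4 and 58.3 CPM with vehicle and 26.4, 25.8, 24 and 21.1 CPM with TGF-β1. The order of the falls was *Dhx58* (-1.25 ± 0.05), *Ifih1* (-0.89 ± 0.06) and *Ddx58* (-0.65 ± 0.04), with edgeR adjusted p from 6.93e-21 to 1.7e-05 and no overlap between groups. *Ddx58* and *Ifih1* are the lower members whose ISRE matches lie only after the start site, together with *Ifitm3*.

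Proteins that bind or destroy viral RNA formed the largest group of members, with 17 of 18 lower, none higher and a median of -1.0. IFIT proteins bind the ends of foreign RNA and block its translation, and their 6 genes lie within 99.3 kb of chromosome 19 (34550694 to 34650009). All 6 fell, and together they measured 2149.5 ± 130.3 CPM in vehicle cultures and 1019 ± 126 CPM in TGF-β1 cultures (mean ± SD, n = 4 each). *Ifit1* (ENSMUSG00000034459, chromosome 19, 34640871 to 34650009) was at 880.0, 793, 888 and 851 CPM with vehicle and 441, 512, 409 and 392 CPM with TGF-β1. *Ifit2* was at 393, 321, 397 and 368 CPM with vehicle and 146, 174, 145 and 139.8 CPM with TGF-β1. *Ifit3*, whose promoter stretch above holds 2 ISRE matches, was at 674, 611, 689 and 648 CPM with vehicle and 319, 366, 299 and 268 CPM with TGF-β1. These 3 genes kept 51.4%, 40.9% and 47.8% of the vehicle mean (log2 fold changes -0.96 ± 0.09, -1.29 ± 0.10 and -1.07 ± 0.10, edgeR adjusted p = 0.000161, 4.76e-05 and 0.000144). Copy *Ifit3b* was at 257, 223, 259 and 244 CPM with vehicle and 103, 129, 98.4 and 88.5 CPM with TGF-β1. The *Ifit1* relatives had fewer counts and differed between themselves. *Ifit1bl1* was at 20.2, 15.1, 19.2 and 18.1 CPM with vehicle and 5.78, 6.77, 6.61 and 5.45 CPM with TGF-β1. *Ifit1bl2* was at 6.68, 7.24, 7.13 and 7.58 CPM with vehicle and 4.65, 4.70, 4.89 and 4.13 CPM with TGF-β1. They mark the ends of the range in this cluster, with log2 fold changes of -1.56 ± 0.08 and -0.64 ± 0.09 (edgeR adjusted p = 1.53e-17 and 1.04e-07), and the *Ifit3b* change was -1.23 ± 0.12 (edgeR adjusted p = 0.000182).

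The OAS enzymes make oligoadenylates in answer to double-stranded RNA, which activate the nuclease RNase L. Their genes on chromosome 5 (120730333 to 120921652) summed to 511 ± 4.77 CPM in vehicle cultures and 299.8 ± 23.7 CPM in TGF-β1 cultures (mean ± SD, n = 4 each). Most of these counts came from *Oas2*, at 321, 319.7, 309 and 315 CPM with vehicle and 200.4, 204, 200.4 and 172 CPM with TGF-β1. *Oas3*, the longest of the enzymes, was at 71.8, 68, 72 and 71.7 CPM with vehicle and 40.6, 41.8, 42.2 and 35 CPM with TGF-β1. *Oas1a* was at 74.6, 73.3, 80.4 and 77.4 CPM with vehicle and 41.9, 45.7, 41.9 and 36.6 CPM with TGF-β1. Its close copy *Oas1g* was at 35.3, 31.9, 35.7 and 35.8 CPM with vehicle and 16.2, 19.6, 16.3 and 14.9 CPM with TGF-β1. These 4 genes fell by log2 fold changes of -0.71 ± 0.05 (*Oas2*), -0.83 ± 0.04 (*Oas3*), -0.88 ± 0.05 (*Oas1a*) and -1.05 ± 0.06 (*Oas1g*), with edgeR adjusted p from 2.1e-16 to 1.21e-06 and no overlap. The other *Oas1* genes had far fewer counts. *Oas1c* was at 8.03, 6.87, 8.71 and 7.99 CPM with vehicle and 5.61, 5.92, 5.63 and 4.98 CPM with TGF-β1 (log2 fold change -0.51 ± 0.09). *Oas1h* was at 3.25, 3.49, 4.29 and 3.29 CPM with vehicle and 1.48, 1.42, 1.03 and 1.26 CPM with TGF-β1 (log2 fold change -1.47 ± 0.15). Below 1 CPM, *Oas1f* was called lower (-1.24 ± 0.34), *Oas1d* was called lower with overlapping groups (-1.12 ± 0.36, edgeR adjusted p = 0.0104) and *Oas1e* was not called (-0.23 ± 0.43, edgeR adjusted p = 0.714). Both *Oas1f* and *Oas1d* passed the filter for expression through their vehicle cultures, and the TGF-β1 cultures alone would not have passed it. Their calls therefore carry little weight. The call of *Oas1d*, at 6 to 38 counts per culture, was lost without vehicle replicate 4 (-0.85, edgeR adjusted p = 0.0899) and without TGF-β1 replicate 8 (-0.89, edgeR adjusted p = 0.0566).

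The OAS-like genes lie apart from the *Oas* cluster, also on chromosome 5. *Oasl1*, whose product restrains translation of *Irf7* mRNA, was at 60.0, 54.1, 58.5 and 57.5 CPM with vehicle and 23.3, 26.6, 22 and 20.1 CPM with TGF-β1. *Oasl2*, whose product keeps oligoadenylate synthesis, was at 573, 538, 565 and 544 CPM with vehicle and 308, 339, 304 and 277 CPM with TGF-β1. *Isg20*, a nuclease for single-stranded RNA, was at 37.2, 32, 34 and 33.8 CPM with vehicle and 22.9, 24, 23.7 and 20.9 CPM with TGF-β1. All 3 separated the groups fully, with log2 fold changes of -1.32 ± 0.07 (*Oasl1*), -0.85 ± 0.06 (*Oasl2*) and -0.58 ± 0.05 (*Isg20*) and edgeR adjusted p from 9.46e-14 to 1.72e-05.

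ISG15 is a ubiquitin-like protein that is attached to other proteins during the interferon response, and USP18 both removes it and restrains the type I receptor. *Isg15* (ENSMUSG00000035692, chromosome 4, 156199424 to 156200818) was at 169, 166, 179.9 and 173 CPM with vehicle and 116, 125, 117 and 104 CPM with TGF-β1. *Usp18* was at 173, 155, 173 and 165 CPM with vehicle and 96.8, 115, 100.2 and 91.2 CPM with TGF-β1. The modifier and the enzyme that removes it fell by -0.58 ± 0.05 and -0.72 ± 0.08 on the log2 scale (edgeR adjusted p = 5.31e-07 and 0.000281), and for both the groups were fully apart.

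Among the 10 proteins that act on membranes or on replication, the change depended on the gene. The group had 6 lower and 1 higher of 9 tested, with a median of -0.27. *Rsad2* (ENSMUSG00000020641, chromosome 12, 26442746 to 26456452) encodes viperin, an enzyme whose nucleotide product stops viral polymerases, and was at 223, 196, 239 and 204 CPM with vehicle and 74.7, 106, 65.7 and 68.3 CPM with TGF-β1. *Mx1*, a dynamin-like GTPase that blocks influenza virus, was at 19.2, 16.8, 20.6 and 16.8 CPM with vehicle and 5.67, 7.21, 3.91 and 5.36 CPM with TGF-β1. Both were strongly lower, at 36.5% and 30.2% of the vehicle mean (log2 fold changes -1.45 ± 0.17 and -1.73 ± 0.16, edgeR adjusted p = 0.000438 and 3.29e-05), and the TGF-β1 cultures also differed among themselves, from 65.7 to 106 CPM for *Rsad2*. *Bst2*, which encodes tetherin and holds budding virus at the surface, was at 151, 142, 165 and 161 CPM with vehicle and 131, 133, 129 and 119.7 CPM with TGF-β1, a smaller change of -0.27 ± 0.05 (edgeR adjusted p = 0.000372).

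IFITM proteins sit in membranes and hinder fusion of viral envelopes. *Ifitm3*, the main member against influenza virus, was at 609, 607, 601 and 613 CPM with vehicle and 513, 493, 503 and 449.6 CPM with TGF-β1. It changed by -0.31 ± 0.03 on the log2 scale (edgeR adjusted p = 3.72e-10) without overlap of the groups. *Ifitm1* was at 193, 193, 181 and 186 CPM with vehicle and 119, 104, 106 and 94.1 CPM with TGF-β1, and *Ifitm2* changed by -0.17 ± 0.03 (edgeR adjusted p = 3.83e-06). *Ifitm1* thus had the largest fall of the *Ifitm* genes, -0.83 ± 0.07 (edgeR adjusted p = 3.55e-05). *Ifitm6* was at 2.47, 2.39, 1.94 and 2.21 CPM with vehicle and 3.34, 3.92, 3.19 and 3.64 CPM with TGF-β1, and was the only *Ifitm* gene that rose (0.64 ± 0.13, edgeR adjusted p = 5.63e-05). *Ifitm5*, best known from bone, and *Ifitm10* were not called (0.03 ± 0.13 and 0.03 ± 0.08, edgeR adjusted p = 0.906 and 0.792), and *Ifitm7* was not tested at 2 to 14 counts per culture. On chromosome 7, 5 of these genes lie within 69 kb (140948958 to 141017924), and of these 3 were lower and 1 was higher.

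The guanylate-binding proteins (GBPs) are GTPases that attack the membranes of bacteria and parasites inside cells, and with *Ifi47*, a GTPase of a related immunity family, they formed a group in which all 10 tested members fell, with a median of -0.94. Their genes lie in a cluster on chromosome 3 (142493978 to 142638008), where the summed level went from 865 ± 42.6 to 471 ± 45.3 CPM (mean ± SD, n = 4 each), and in another on chromosome 5 (105014150 to 105293698), where it went from 429 ± 19.0 to 211 ± 17.2 CPM. On chromosome 3, *Gbp2* was at 353, 319, 362 and 359 CPM with vehicle and 204, 228, 198 and 180.2 CPM with TGF-β1. *Gbp3* was at 257, 247, 262 and 266 CPM with vehicle and 145, 158, 145 and 125 CPM with TGF-β1. These kept 58.2% and 55.3% of the vehicle mean. *Gbp5*, which promotes inflammasome assembly, was at 67.3, 65.3, 72.1 and 66.4 CPM with vehicle and 27.2, 34.8, 27.4 and 24.9 CPM with TGF-β1. *Gbp7* was at 197, 172, 204 and 191 CPM with vehicle and 96.9, 107, 95.4 and 87.7 CPM with TGF-β1. The log2 fold changes on this chromosome were -0.78 ± 0.08 (*Gbp2*), -0.85 ± 0.07 (*Gbp3*), -1.25 ± 0.10 (*Gbp5*) and -0.98 ± 0.08 (*Gbp7*), with edgeR adjusted p from 4.64e-05 to 0.000237.

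On chromosome 5, *Gbp4* (ENSMUSG00000079363, 105115767 to 105139586) was at 117, 102, 111 and 104 CPM with vehicle and 36.4, 40.0, 33.9 and 30.0 CPM with TGF-β1. *Gbp9* was at 207, 197, 207 and 196 CPM with vehicle and 114, 121, 113 and 104 CPM with TGF-β1. The annotated exons of these neighbours overlap, and *Gbp4* fell by more (-1.63 ± 0.09) than *Gbp9* (-0.83 ± 0.03), although this difference was not tested. *Gbp6* was at 86.5, 77.1, 90.4 and 82.5 CPM with vehicle and 49.1, 56.3, 51.8 and 43.5 CPM with TGF-β1. *Gbp10* was at 27.7, 27.4, 30.2 and 27.5 CPM with vehicle and 11.6, 10.6, 10.5 and 8.45 CPM with TGF-β1. *Gbp6* and *Gbp10* share much of their sequence, so their separate values (-0.75 ± 0.09 and -1.46 ± 0.06) are uncertain. *Gbp8* was at 6.73, 6.40, 6.73 and 5.46 CPM with vehicle and 2.47, 2.48, 2.51 and 2.66 CPM with TGF-β1 (-1.32 ± 0.11). *Ifi47*, on chromosome 11, was at 125, 121, 132 and 125 CPM with vehicle and 67.1, 73.3, 66.6 and 61.8 CPM with TGF-β1 (-0.90 ± 0.04). For these 6 genes edgeR adjusted p ranged from 2.37e-20 to 0.00034 and the groups did not overlap, and *Gbp2b* was not tested at 3 to 19 counts per culture.

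The PYHIN genes, which encode nuclear and cytosolic proteins that can bind DNA and form filaments with their pyrin domain, had the lowest median of the role groups when taken gene by gene. With counts summed over the family, the log2 fold change was -1.08 ± 0.07, and that of the *Ifit* family was -1.08 ± 0.10. Of 10 tested members, 9 fell and none rose, with a median of -1.52, and 7 fell by at least 1 on the log2 scale. All 11 lie within 563 kb of chromosome 1 (173468485 to 174031810), and their summed level went from 1513 ± 84.5 to 717 ± 64.9 CPM (mean ± SD, n = 4 each). *Ifi213* (ENSMUSG00000073491, chromosome 1, 173566283 to 173599274) had the largest fall of all members, from 76.7, 67.1, 68.2 and 63.1 CPM with vehicle to 16.2, 19.4, 14.9 and 11.4 CPM with TGF-β1. What remained was 22.5% of the vehicle mean (log2 fold change -2.15 ± 0.15, edgeR adjusted p = 2.79e-05). *Ifi206* was at 171, 137, 153 and 141 CPM with vehicle and 48.5, 51.8, 45 and 36.9 CPM with TGF-β1. *Ifi214* was at 9.20, 7.72, 8.65 and 8.02 CPM with vehicle and 2.55, 3.16, 1.99 and 1.94 CPM with TGF-β1. These neighbours of *Ifi213* changed by -1.73 ± 0.12 and -1.80 ± 0.11 (edgeR adjusted p = 3.22e-05 and 6.54e-17). *Ifi204*, a DNA sensor of mouse cells, was at 326, 306, 324 and 310.2 CPM with vehicle and 121, 127, 118 and 101 CPM with TGF-β1. *Ifi205* was at 62.3, 53.5, 64.8 and 55.6 CPM with vehicle and 18, 22.1, 18.3 and 16.2 CPM with TGF-β1. *Ifi203* was at 462, 414, 456 and 440.0 CPM with vehicle and 196, 229, 192 and 183 CPM with TGF-β1. In these 3 the TGF-β1 cultures kept 36.9%, 31.6% and 45.1% of the vehicle mean (log2 fold changes -1.44 ± 0.07, -1.66 ± 0.11 and -1.15 ± 0.08). *Ifi209* was at 8.55, 8.09, 10.1 and 8.25 CPM with vehicle and 3.23, 3.14, 2.47 and 2.62 CPM with TGF-β1. *Ifi211* was at 145, 127, 142 and 135 CPM with vehicle and 79.2, 89, 80.7 and 74.5 CPM with TGF-β1. *Ifi207*, the most abundant PYHIN gene per length, was at 339.5, 298, 336 and 307 CPM with vehicle and 232, 257, 230.1 and 217 CPM with TGF-β1. *Ifi207* changed least among the called PYHIN genes (-0.45 ± 0.07), beside -0.76 ± 0.06 for *Ifi211* and -1.61 ± 0.10 for *Ifi209*, and over these 6 genes edgeR adjusted p ranged from 1.32e-17 to 0.00146. The promoter stretches of *Ifi207* and *Ifi213* above hold the same ISRE letters, GAAATCGAAA, although the falls of these genes were the smallest and the largest called among PYHIN genes. *Ifi208* was below 1 CPM and not called (-0.47 ± 0.30, edgeR adjusted p = 0.23), and *Ifi202b* had 0 to 6 counts per culture and was not tested.

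The remaining *Ifi* genes include the *Ifi27* family and the paralogs *Ifi44* and *Ifi44l*, and went both ways. *Ifi44* was at 372, 341, 370.5 and 355 CPM with vehicle and 175, 198, 178 and 153 CPM with TGF-β1. *Ifi35*, whose product pairs with NMI, was at 64.8, 61.8, 66.6 and 62.9 CPM with vehicle and 39.2, 40.4, 38.9 and 35.6 CPM with TGF-β1. *Ifi27l2a*, a small membrane protein gene, was at 84, 86.2, 87.4 and 85.9 CPM with vehicle and 52.8, 47.9, 51.6 and 43 CPM with TGF-β1. All 3 fell without overlap, by -1.03 ± 0.08, -0.73 ± 0.04 and -0.81 ± 0.05 on the log2 scale (edgeR adjusted p = 5.3e-05, 5.74e-21 and 2.1e-12). Its relatives *Ifi27* and *Ifi27l2b*, which lie beside it on chromosome 12 (103434211 to 103457223 over the 3 genes), rose. *Ifi27* was at 53, 54.7, 52.7 and 56.4 CPM with vehicle and 63.2, 66.6, 59.6 and 68.1 CPM with TGF-β1. *Ifi27l2b* was at 0.911, 1.07, 0.863 and 1.54 CPM with vehicle and 2.31, 2.20, 1.92 and 1.51 CPM with TGF-β1, and its groups overlapped, since TGF-β1 replicate 8 was below vehicle replicate 4. The rises were 0.25 ± 0.04 and 0.86 ± 0.19 on the log2 scale (edgeR adjusted p = 2.15e-07 and 0.000197). The 3 genes share at most 0.483% of their 50-base words with other transcripts. *Ifi44l* had 1 to 8 counts per culture and was not tested.

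Levels of different genes can be compared only per length. In CPM per kilobase of exon, the vehicle means of *Ifitm3* (896), *Ifit3* (376), *Ifit1* (321), *Ifitm2* (240.4) and *Isg15* (228) were highest. With TGF-β1 the order was *Ifitm3* (722), *Ifitm2* (213), *Ifit3* (179), *Ifit1* (165) and *Isg15* (153), again in CPM per kilobase. *Ifitm2* thus moved above *Ifit3* and *Ifit1*. The levels of *Ifitm2* and *Ifit3* are uncertain, since much of their sequence is shared with other transcripts. Within roles, the most abundant per length with vehicle were *Ifngr1* (17.3) among receptors, *Irf7* (58.9) among IRFs, *Ddx58* (73.0) among RNA sensors, *Gbp2* (138) among GBPs, *Ifi207* (93.5) among PYHIN genes and *Ifi27l2a* (185) among the remaining *Ifi* genes, all in CPM per kilobase. The 4 *Ifitm2* values were 162, 159, 155 and 153 CPM with vehicle and 146, 141, 141 and 129 CPM with TGF-β1.

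**Figure D4:**
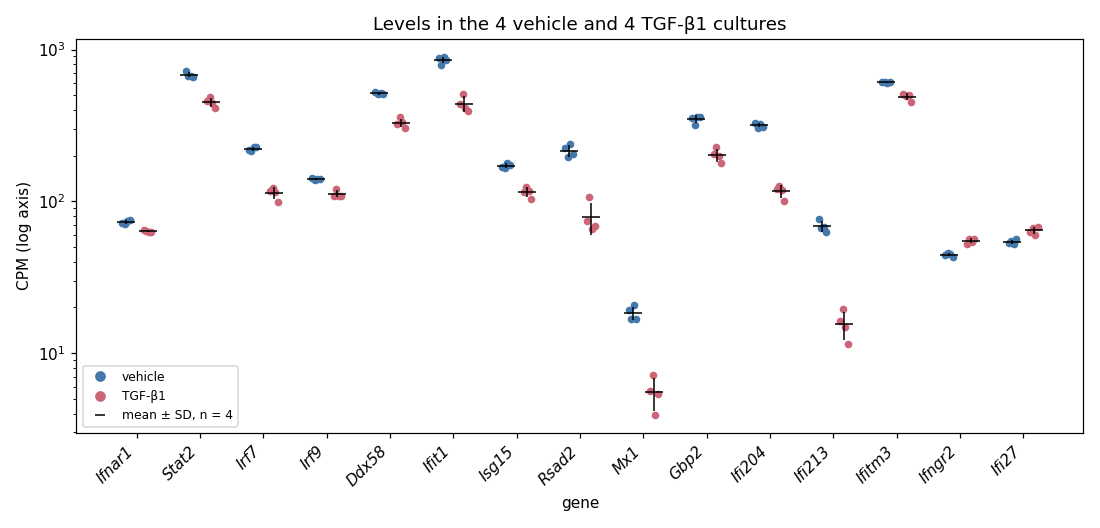
CPM (y axis, log scale) of 15 members (x axis) in the 4 vehicle and 4 TGF-β1 cultures, with points for cultures and bars for the mean and SD. The groups are apart in every gene shown, with TGF-β1 lower in all but *Ifngr2* and *Ifi27*.

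Among the interferon genes themselves, *Ifnb1* and *Ifna4* were called lower, both at low counts. Of 20 interferon genes, 17 were too low to be tested, and *Ifng* had 0 counts in every culture, which allows up to 3 counts or 0.0631 to 0.0658 CPM. *Ifnb1*, the type I interferon of non-immune cells, was at 0.738, 0.504, 1.14 and 1.28 CPM with vehicle and 0.327, 0.261, 0.153 and 0.213 CPM with TGF-β1. It passed the test (log2 fold change -1.93 ± 0.32, edgeR adjusted p = 2.83e-06) at 7 to 59 counts per culture. *Ifna4* was at 0.391, 0.285, 0.274 and 0.260 CPM with vehicle and 0.0655, 0.0871, 0 and 0.0426 CPM with TGF-β1 and also passed (log2 fold change -2.57 ± 0.55, edgeR adjusted p = 0.000135), at 0 to 18 counts per culture. Both genes passed the filter for expression through their vehicle cultures, and the TGF-β1 cultures alone would not have passed it. At such levels a gene can enter the test through the group where it is higher, so these calls carry little weight. *Ifne* was not called.

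A list of 26 JAK-STAT and feedback genes had 9 lower and 6 higher of 25 tested and a median of -0.04. The shares were 36% lower and 24% higher, against 20.3% and 20.9% of all genes tested, so the higher share was near that of all genes. *Jak1*, the kinase common to both receptor types, was at 236, 240.2, 244 and 239 CPM with vehicle and 241, 252, 246 and 245 CPM with TGF-β1 and was not called (0.04 ± 0.02, edgeR adjusted p = 0.236). *Jak2*, the kinase of the type II receptor, was at 105, 96.4, 112 and 105 CPM with vehicle and 121, 130.0, 128 and 125 CPM with TGF-β1. *Tyk2*, the kinase of the type I receptor, was at 62.5, 68.1, 65.1 and 63.9 CPM with vehicle and 51.8, 48.4, 52.4 and 50.5 CPM with TGF-β1. The type-specific kinases thus went opposite ways, *Jak2* up by 0.27 ± 0.03 and *Tyk2* by -0.35 ± 0.03 on the log2 scale (edgeR adjusted p = 3.01e-08 and 7.47e-12). The feedback inhibitor *Socs1* was at 11.6, 14.3, 15.8 and 12.9 CPM with vehicle and 11.2, 12.7, 10.9 and 9.70 CPM with TGF-β1, with overlapping groups (-0.29 ± 0.09, edgeR adjusted p = 0.00682). *Socs3*, the inhibitor best known from cytokine receptors of the gp130 type, was at 19.8, 21.9, 20.2 and 24.3 CPM with vehicle and 39.9, 39.4, 40.6 and 35.5 CPM with TGF-β1. It had the largest change of the list (0.85 ± 0.05, edgeR adjusted p = 5.31e-15), ahead of the phosphatase gene *Ptpn6* (-0.65 ± 0.08) and *Cish* (0.53 ± 0.14). *Ptpn6* was at 11, 10.7, 11.7 and 11.1 CPM with vehicle and 7.75, 5.97, 7.46 and 7.11 CPM with TGF-β1, and *Cish* at 3.02, 2.30, 2.50 and 2.77 CPM and 3.10, 4.53, 3.14 and 4.57 CPM.

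Of 31 genes for sensing nucleic acid, 17 were lower and 7 higher among 30 tested, with a median of -0.18. These were 56.7% and 23.3%, against 20.3% and 20.9% of all genes tested. The endosomal RNA receptors differed. *Tlr3* was at 87.5, 74.1, 83.3 and 77.4 CPM with vehicle and 40.3, 48.4, 41.7 and 39 CPM with TGF-β1 (-0.93 ± 0.08, edgeR adjusted p = 4.02e-05). *Tlr7* rose from 0.651, 0.680, 0.716 and 0.607 CPM with vehicle to 1.70, 1.83, 1.72 and 1.60 CPM with TGF-β1 (1.36 ± 0.19, edgeR adjusted p = 9.68e-08), at 28 to 84 counts per culture. *Aim2*, the inflammasome sensor of DNA and a PYHIN gene outside the symbol rule, was at 19.2, 17.7, 17.6 and 17.5 CPM with vehicle and 10.4, 11.1, 8.51 and 8.96 CPM with TGF-β1 (-0.89 ± 0.07, edgeR adjusted p = 8.82e-15). A list of 52 other interferon-stimulated genes had 48 lower, 0 higher and a median of -0.71 by edgeR, and the same counts by DESeq2. The lower share was 92.3%, against 20.3% of all genes tested. At an unadjusted edgeR p under 0.05, 49 of the list were lower and 0 higher. The list was drawn up with earlier results of these data known, so it is no independent check of the members. *Cmpk2*, a nucleotide kinase next to *Rsad2*, was at 158, 133, 158 and 145 CPM with vehicle and 47.9, 61.2, 39.7 and 40.1 CPM with TGF-β1. *Batf2* was at 1.58, 0.812, 0.905 and 1.13 CPM with vehicle and 0.349, 0.414, 0.371 and 0.426 CPM with TGF-β1, and *Epsti1* at 13.6, 13.8, 14.7 and 14 CPM and 4.95, 6.64, 4.95 and 5.11 CPM. These were the largest changes of the list, at -1.65 ± 0.15 (*Cmpk2*), -1.50 ± 0.26 (*Batf2*) and -1.37 ± 0.08 (*Epsti1*), with edgeR adjusted p from 6.09e-19 to 0.000128. *Gvin1*, *Trim56*, *Slfn5* and *Plscr1* were the 4 genes of the list that were not called.

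**Figure D5:**
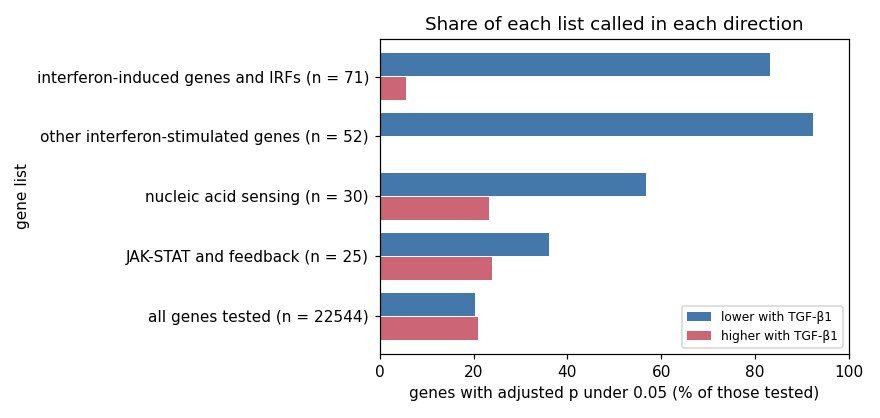
Share of tested genes (x axis, percent) that were lower or higher with TGF-β1 at an adjusted p under 0.05, for the members, the pathway lists and all genes tested (y axis, with the number tested). The members and the other interferon-stimulated genes stand at 83.1% and 92.3% lower, against 20.3% of all genes tested. Members and lists were picked with earlier results of these data known.

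The members also kept a like order between the cultures of a group. Among the 59 lower members, TGF-β1 replicate 6 had the highest value of the 4 TGF-β1 cultures in 47 (79.7%) and TGF-β1 replicate 8 the lowest in 49 (83.1%). Among the 4527 other genes that were lower, these shares were 24.2% and 38.1%. On the vehicle side, replicate 2 was lowest in 41 of the 59 (69.5%), against 24.2% of the other lower genes. The summed level shows the same order, with TGF-β1 replicate 6 at 6923 CPM and TGF-β1 replicate 8 at 5729 CPM. Leaving out either changed the number of lower members by at most 1.

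Copies within these families can share reads. The share of 50-base words of a gene that also occur in transcripts of other genes was 84.1% for *Gbp10*, 72.8% for *Ifi211*, 70.7% for *Gbp6*, 57.6% for *Oas1a*, 51.2% for *Ifit3*, 48.5% for *Ifitm2*, 45.7% for *Oas1g* and 45% for *Ifit3b*. For these genes the split between copies is uncertain, so the counts were also summed within families. The 6 *Ifit* genes together fell by 1.08 on the log2 scale (edgeR adjusted p = 0.000107), the 7 *Oas1* genes by 0.92 (edgeR adjusted p = 6.02e-06), the 10 *Gbp* genes by 0.93 (edgeR adjusted p = 4.73e-05) and the 11 PYHIN genes by 1.08 (edgeR adjusted p = 2.58e-05). The 7 *Ifitm* genes together fell by 0.37 (edgeR adjusted p = 1.49e-09). Genes on the opposite strand overlap 16.8% of the exon length of *Ifi35* and 14.1% of that of *Irf5*. Genes on the same strand overlap larger parts of some members, such as 46.3% for *Gbp10*, 40.9% for *Ifitm2*, 29.7% for *Ifitm5* and 29% for *Gbp6*. Counting by strand would not resolve these. The library kit keeps strand, but whether the counting used it was not given in the sources used here.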

How the data were processed

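RNA was measured in 8 cultures, and per the labels it was extracted with a Maxwell kit and sequenced from a stranded total RNA library. According to the methods and the submitters' processing notes, the authors used STAR 2.7.5c for alignment to mm10, SAMtools 1.15 for removal of PCR duplicates and featureCounts 2.0.3 for counting by gene. The deposited values are these raw counts for 54532 genes, without normalization, and the annotation release, the strand setting and the treatment of shared reads are not given in the sources used here. Removal of duplicates can lower the counts of the most abundant genes, and low counts were mostly even (68.5% to 70.2% of those from 1 to 20), so intervals from counts would be too narrow.

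Symbols, positions and exon lengths came from GENCODE M21 (GRCm38, equal to mm10), which covered 54495 of the identifiers. Counts were tested with edgeR 4.0.16 in R 4.3.3 (filterByExpr, TMM, robust quasi-likelihood fit, Benjamini-Hochberg over 22544 genes, threshold 0.05), 4 cultures against 4, after a check of the code on simulated data. The standard error was the log2 fold change divided by the square root of F. CPM is the count per 1000000, scaled by the library total times its TMM factor. The depth of 45255235 to 47651397 counts put 3 counts at 0.0631 to 0.0658 CPM. Within groups, chi-square values per degree of freedom were 1.13 to 1.99 (counts halved, because low counts were mostly even). Sampling noise alone gives about 1, so every pair exceeded it, vehicle replicates 3 and 4 least (1.13). Each culture was counted as 1 replicate, although these values do not show that the cultures were independent.

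Alternatives were DESeq2 1.42.0, other scalings and filters, halved counts and each culture left out. The members and lists were chosen with earlier results of these data known. Values for each culture are given for called members with a change of at least 0.5 on the log2 scale and a mean of at least 1 CPM, the receptors, STATs and IRFs, the most abundant member of each role per length, *Jak1*, *Jak2*, *Tyk2*, *Socs1*, *Socs3* and the 3 largest called changes of each list. *Oasl* and *Mnda*, older names of members, were left out of the lists. Some genes that fall under this rule are not reported here.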

Additional observations from a re-analysis of the deposited data

Results flagged for a closer look

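A single culture stood apart from the other 3 of its group in 10 of the 182 groups of 4 values examined, where chance alone gives about 1 in 20, or 9.1. In the vehicle group these were replicate 1 for *Stat2* (721 CPM, next 673), *Irf2* (78.8 CPM, next 74.6) and *Aim2* (19.2 CPM, next 17.7), replicate 2 for *Dhx58* (55.2 CPM, next 58.3), *Oas1g* (31.9 CPM, next 35.3) and *Oas3* (68.0 CPM, next 71.7), and replicate 3 for *Gbp10* (30.2 CPM, next 27.7). In the TGF-β1 group these were replicate 6 for *Irf9* (121 CPM, next 109) and *Epsti1* (6.64 CPM, next 5.11) and replicate 8 for *Oas2* (172 CPM, next 200.4). None of the 10 values crossed into the range of the other group.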

How the results depend on the processing

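Under DESeq2, 3 other scalings, 2 other filters, halved counts and each culture left out, the counts of members and of list genes in each direction, the median and the number of members without overlap stayed within 1.5 times their value or their spread (150 of 150 comparisons). The number of lower members ranged from 57, with at least 10 counts in every culture or with halved counts, to 59, and the number of higher members was 4 throughout. The median ranged from -0.85 without TGF-β1 replicate 6 to -0.76 without TGF-β1 replicate 8. For 94 results on single genes and families (the members tested and the list genes chosen by the rule), 1324 comparisons kept direction and side of the threshold, and 2 lost the call, both for *Oas1d*. Of 89 called genes of the pathway lists, 5 lost the call without at least 1 culture (*Ifnlr1*, *Nlrc3*, *Rnaseh2a*, *Slfn2* and *Stat5b*, with highest edgeR adjusted p of 0.071 to 0.104), as did 3 of 31 called marker and check genes (*Cnn1*, *Dpt* and *Tek*, 0.115 to 0.179). Without single cultures, the log2 fold change of *Ifitm10* ranged from -0.01 to 0.07, that of *Ifitm5* from -0.05 to 0.08 with -0.03 and -0.00 between, and that of *Oas1e* from -0.60 to 0.12, so these 3 genes, none of them called, changed sign in 5 comparisons, and the cause was not tested. Low counts limit genes under 1 CPM, such as *Oas1d*, *Oas1e*, *Ifi208* and the interferon genes. No paired analysis was possible because the labels number the vehicle cultures 1 to 4 and the TGF-β1 cultures 5 to 8, although the methods describe isolates that received both treatments.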

Other observations

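Genes of the same series that the annotation does not class as protein-coding were left out of the members, and their values are given here as chosen after they were seen. Most went the way of the members. *Mx2*, the paralog of *Mx1*, was at 69.5, 63.6, 71.4 and 63.5 CPM with vehicle and 28.2, 33.8, 27.0 and 25.6 CPM with TGF-β1 (log2 fold change -1.23 ± 0.09, edgeR adjusted p = 8.96e-06). *Oas1b*, known as a resistance gene against flaviviruses, was at 60.8, 56.4, 60.5 and 58.9 CPM with vehicle and 31.2, 35.7, 29.4 and 26.7 CPM with TGF-β1 (-0.94 ± 0.07, edgeR adjusted p = 8.81e-07). *Gbp11* was at 7.01, 6.25, 7.03 and 5.85 CPM with vehicle and 1.64, 1.81, 1.33 and 1.83 CPM with TGF-β1 (-1.98 ± 0.12, edgeR adjusted p = 1.88e-18), and *Ifi203-ps* fell by 1.17 on the log2 scale. *Ifi30*, which encodes a lysosomal thiol reductase, rose by 0.36 ± 0.05 (edgeR adjusted p = 1.51e-07), and *Gbp2-ps* was not tested.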
